A study of Mus musculus with 6 samples.

Results

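The genes described here are 9 that store, import, export or sense iron in macrophages, namely Fth1, Ftl1, Tfrc, Slc11a2, Slc11a1, Slc40a1, Hmox1, Aco1 and Ireb2. They were chosen by gene name from a deposited table of 54660 gene rows, and each of the 9 names matched a row. All 9 passed the expression filter. RNA was sequenced from macrophages that had been grown from mouse bone marrow (BMDMs). The mice were C57BL/6 animals aged 6 to 8 weeks, either Xbp1FL/FL, with floxed Xbp1 alleles (called WT), or Xbp1M-KO (called KO), with 3 libraries each. By its name and the title of the study the KO is a deletion of Xbp1, which encodes an unfolded protein response transcription factor, in macrophages and other myeloid cells. The sources used here do not name the Cre driver. All 6 libraries were made after 6 h of lipopolysaccharide (LPS), an outer membrane molecule of bacteria, so no unstimulated cells were analysed here. The title of the study asks about XBP1 and STING signalling in liver fibrosis, and iron was not its stated subject.

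Macrophages take in iron as transferrin through the transferrin receptor, or as heme when they digest old red cells, and either store it in ferritin or release it through ferroportin, the iron exporter encoded by Slc40a1. Ferritin is a hollow shell built from a heavy chain, which oxidises iron, and a light chain, which helps to deposit it. Iron regulatory proteins, encoded by Aco1 and Ireb2, sense a lack of iron and bind RNA hairpins called iron-responsive elements. Binding near the start of a transcript blocks its translation, and binding in the 3′ untranslated region of Tfrc protects the transcript from decay. During inflammation macrophages are known to hold back iron, which limits its supply to microbes.

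The hairpins are printed because they are the sequence feature that ties these genes to their regulators. Annotated untranslated regions (UTRs) of GENCODE vM21, on the mm10 assembly, were searched on the transcript strand for an unpaired C, 5 stem bases, a loop of CAGTG and 1 further base, and 5 bases pairing with the stem, where G with T counted as a pair. Only the longest protein-coding transcript of each gene was searched, taken from complete ones where annotated, so other isoforms were not covered. Very short UTRs were left out. A match was found for 5 of the 9 genes, with loops in capitals in the lines below.
Fth1, 5′ UTR, chr19:9982732-9982760, plus strand: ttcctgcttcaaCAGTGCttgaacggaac
Ftl1, 5′ UTR, chr7:45459779-45459807, minus strand: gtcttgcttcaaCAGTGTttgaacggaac
Slc40a1, 5′ UTR, chr1:45925465-45925493, minus strand: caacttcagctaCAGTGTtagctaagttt
Tfrc, 3′ UTR, chr16:32631219-32631247, plus strand: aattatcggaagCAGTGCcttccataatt
Tfrc, 3′ UTR, chr16:32631598-32631626, plus strand: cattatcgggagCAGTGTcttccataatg
Tfrc, 3′ UTR, chr16:32631663-32631691, plus strand: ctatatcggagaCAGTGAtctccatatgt
Tfrc, 3′ UTR, chr16:32631710-32631738, plus strand: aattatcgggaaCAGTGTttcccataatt
Slc11a2, 3′ UTR, chr15:100395153-100395181, minus strand: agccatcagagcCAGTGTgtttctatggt
The Slc11a2 hairpin matched only when 1 unpaired base was allowed within the 3′ side of the stem. Without that allowance a match was present in the 5′ UTR of 0.111% of 18994 genes and the 3′ UTR of 0.566% of 20660 genes, and with it in the 3′ UTR of 1.55% of genes. In windows of equal length the shares without the allowance were 0.0919% for the first 300 bases of a transcript and 0.756% for the first 1500 bases of a 3′ UTR. The loop of Fth1 starts at base 670 of a 5′ UTR of 795 bases, so the window of 300 bases is no comparison for it. No match was found in the searched UTRs of Slc11a1, Hmox1, Aco1 and Ireb2.

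Libraries held between 31976748 and 42448058 counts, and levels between genotypes are compared in CPM, counts scaled to library size with TMM factors. A total of 3 counts, taken as the detection floor of a library, is 0.0682 to 0.096 CPM. Xbp1 fell to 0.74 times its WT level (log2 fold change -0.44, edgeR adjusted p = 2.38e-08, SE 0.0363). The value includes any reads outside the deleted exons, and the sources used here do not name the floxed exons. All 10 macrophage markers examined were expressed, among them Adgre1 at 1232 ± 26.3 CPM in WT and 1727 ± 25.2 CPM in KO (SD, n = 3 each). Their summed level was 38112 to 39502 CPM in WT and 20805 to 21543 CPM in KO. Most of that sum was Lyz2, a lysozyme gene, at 29831 CPM in WT and 11515 CPM in KO. The sum thus mainly followed this 1 gene, whereas 5 of the 10 markers were higher and 3 lower. Neutrophil markers had a summed level of 290 to 311 CPM in WT and 409 to 425 CPM in KO, with 8 of 10 measured members higher and 1 lower, although Ly6g, Mpo, Ctsg, Cxcr2 and Retnlg had too few counts to pass the filter. Stromal markers summed to 949 to 974 CPM in WT and 695 to 711 CPM in KO, with 7 of 12 measured members lower and 2 higher. The largest fall in CPM among them was that of Acta2, from 347 to 151. Vim, the most abundant of them, was at 364 CPM in WT and 382 CPM in KO. These marker counts are at an edgeR adjusted p under 0.05, where 31.5% of all 13080 genes tested were higher and 29.8% lower. The part of these cells in the results was not tested. Whether each library is a separate animal is not in the labels, and the p-values thus reflect spread among these libraries, possibly technical. Values of single libraries are given below in the order of replicates 1 to 3.

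The 9 genes spanned a wide range of levels. The deposited FPKM, which scale a count to gene length and library size, allow genes to be compared. Fth1 had the highest FPKM of all genes in each of the 6 libraries, with a mean of 45906 ± 808 FPKM in WT (SD, n = 3). It was also the gene with the most counts, taking 3.84%, 3.78% and 3.93% of counts in the WT libraries and 3.43%, 3.40% and 3.55% in the KO libraries. The widest 95% Wilson interval of these shares ran from 3.919% to 3.933%, for counting error only. Ftl1 ranked between 3 and 6 by FPKM, at 7085 ± 501 FPKM in WT. Below the ferritin chains came Hmox1 at 603 ± 13.7 FPKM, Slc11a1 at 94.3 ± 4.32 FPKM and Slc11a2 at 24.3 ± 0.747 FPKM in WT. Aco1, Ireb2 and Tfrc were low, at 3.25 ± 0.205, 1.89 ± 0.0839 and 1.84 ± 0.124 FPKM in WT. Slc40a1 was lowest, at 0.24 ± 0.0461 FPKM in WT and 0.216 ± 0.0397 FPKM in KO. The libraries of neighbouring genes in this order did not overlap, except that Ireb2 and Tfrc overlapped in WT. In KO the order of that pair changed, with Tfrc at 2.25 ± 0.044 FPKM and Ireb2 at 1.6 ± 0.0526 FPKM, and there they did not overlap.

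**Figure D1:**
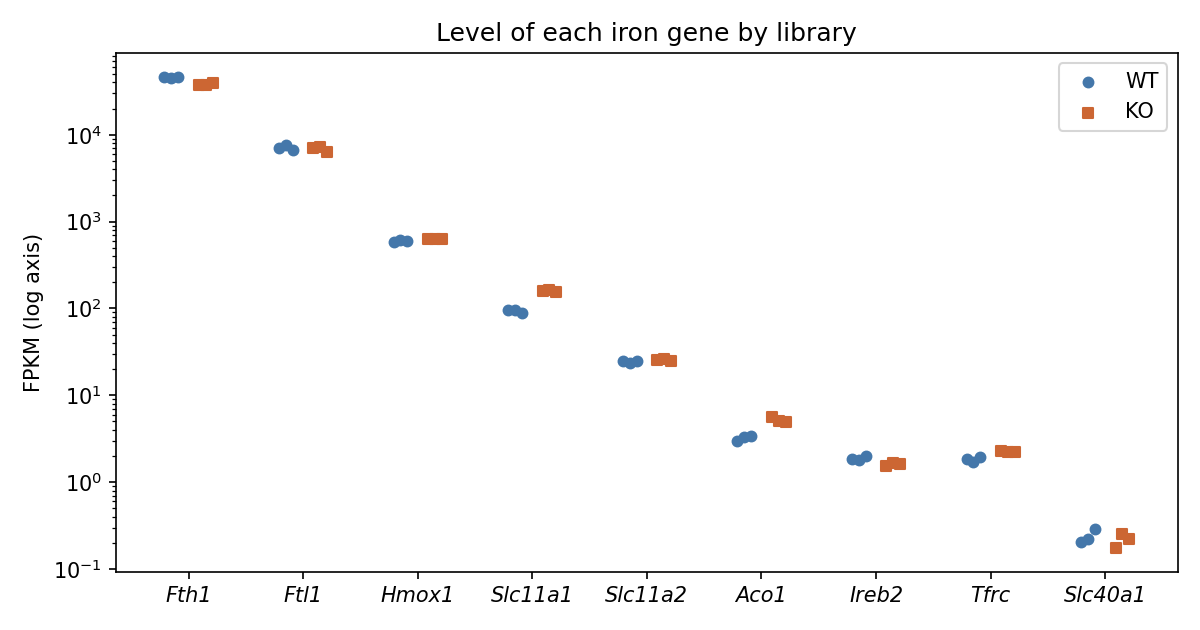
Level of each gene in FPKM on a log axis, with 1 point per library (WT circles, KO squares, 3 each). Fth1 stands highest at 45906 FPKM in WT, Slc40a1 lowest at 0.24 FPKM, and the genotypes differ little against that range.

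Between genotypes, 4 of the 9 genes were higher in KO, 2 were lower and 3 did not pass the test, at a Benjamini-Hochberg adjusted p under 0.05 in edgeR's quasi-likelihood test. Of all 13080 genes tested, 61.3% were called, 31.5% as higher and 29.8% as lower, so the 66.7% of these 9 genes that were called is close to the share of the transcriptome. The median log2 fold change was 0.06 for the 9 genes and 0.00 for all genes tested. The largest changes were rises of Slc11a1, a lysosomal metal transporter, and Aco1, an iron regulatory protein. In bulk RNA a lower level per cell and fewer cells of a type that expresses the gene cannot be told apart.

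**Figure D2:**
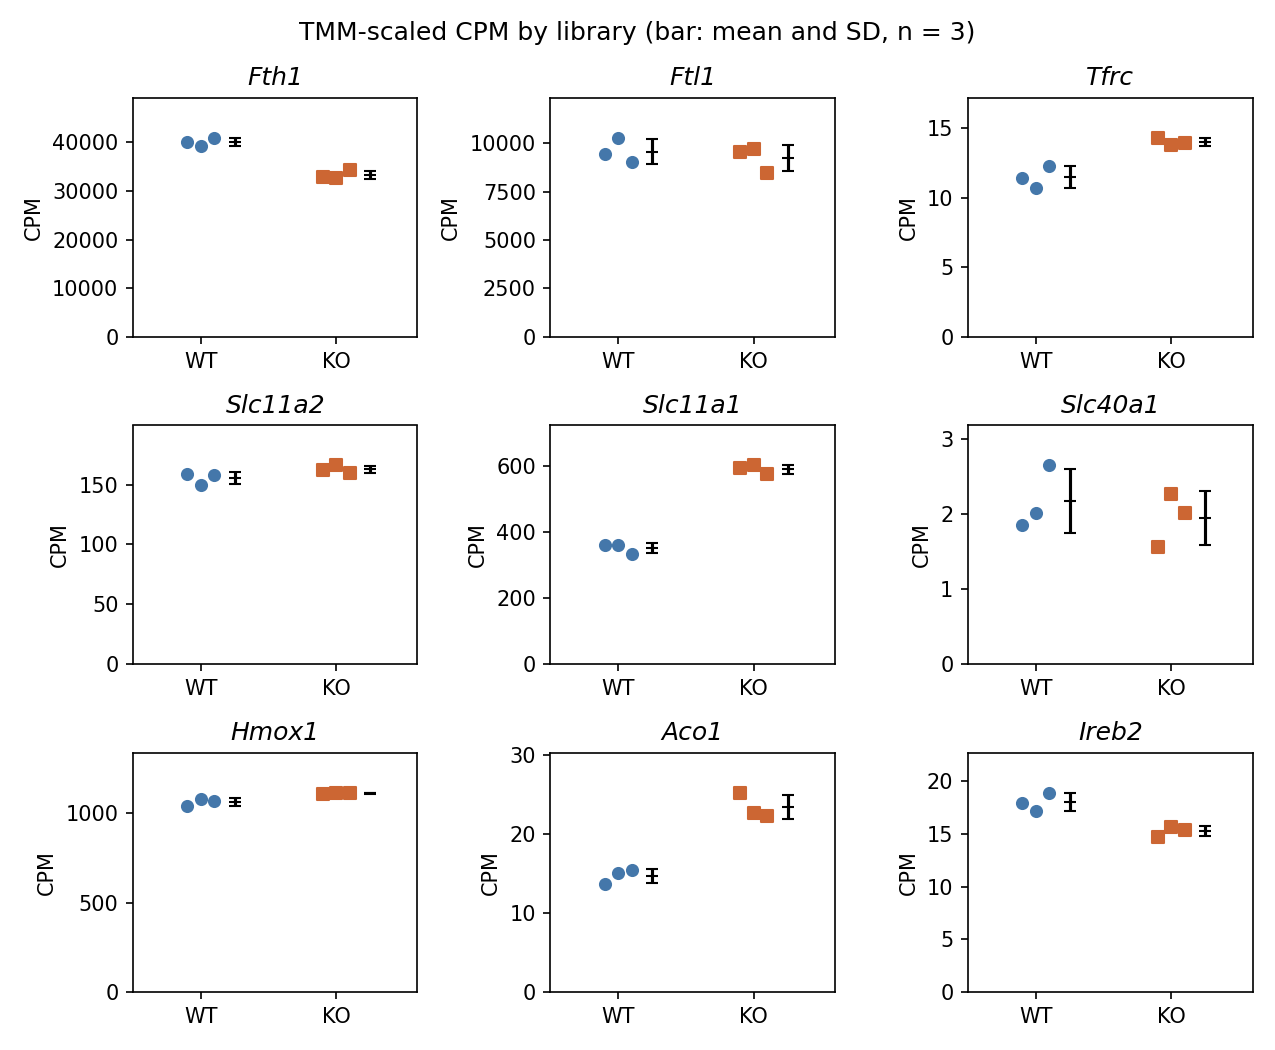
TMM-scaled CPM of each gene by library, with an axis from 0 in each panel, 1 point per library and a bar for the mean and SD (n = 3). The groups separate for all genes but Ftl1 and Slc40a1, and most widely for Slc11a1 and Aco1.

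Of the ferritin chains, the heavy chain was called lower in KO and the light chain was not called. Fth1 (ENSMUSG00000024661, chromosome 19, 9982703 to 9985092), the heavy chain, had 40029, 39274 and 40917 CPM in the WT libraries and 32959, 32590 and 34270 CPM in the KO libraries. Every KO library lay below every WT library. Groups without overlap were seen for 65.9% of all genes tested and for 7 of these 9. The KO mean was 0.83 times the WT mean, a log2 fold change of -0.27 (edgeR adjusted p = 5.40e-09, SE 0.0198). This call was lost once a trend of fold changes with GC content and gene length was removed, where the value was 0.00 (edgeR adjusted p = 0.752). Fth1 is short, with 866 bases counted by the authors, and 7.42% of tested genes were as short or shorter. The trend fitted for a gene of its length and GC content was itself -0.27. That GC content came from its longest annotated transcript, which is longer than the 866 bases counted. Removal of the length trend alone gave 0.01 and of the GC trend alone -0.33, and the first trend with GC taken from the transcript nearest to the deposited length gave -0.08 (edgeR adjusted p = 1.80e-05).

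Ftl1 (ENSMUSG00000050708, chromosome 7, 45457944 to 45459884), the light chain, had 9425, 10274 and 9004 CPM in the WT libraries. The KO libraries had 9551, 9676 and 8437 CPM. The groups overlapped, and the log2 fold change was -0.05 (edgeR adjusted p = 0.327, SE 0.0455, 95% interval -0.14 to 0.04). It was called lower with the GC trend alone removed (-0.21, edgeR adjusted p = 2.53e-04) and higher with the length trend alone removed (0.14, edgeR adjusted p = 0.0245), and it was at 0.00 with both removed. Ftl1 has 8 near-identical copies in the annotation, of which 6 had counts, amounting to 2.53% of the counts of Ftl1. The most abundant copy, Ftl1-ps1, had a mean of 216 CPM in WT against 192 in KO (log2 fold change -0.17, edgeR adjusted p = 0.0128). Its groups overlapped, and the call was lost with the GC and length trend removed (-0.09, edgeR adjusted p = 0.113), while its value was -0.06 under scaling to library totals. Summing Ftl1 and its copies gave -0.06 (edgeR adjusted p = 0.295). Fth1 has 1 such copy, with 8 counts over all libraries.

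The balance of the chains was read within each library, where the scaling between libraries has no effect. The ratio of Fth1 to Ftl1 in FPKM was 6.57, 5.91 and 7.03 in the WT libraries and 5.34, 5.21 and 6.29 in the KO libraries. KO replicate 3 lay above WT replicate 2, so the groups overlapped. The mean log2 ratio was lower by 0.21 in KO (log2 difference -0.21, two-sided exact permutation p = 0.2, and 0.2 after adjustment over 4 ratios). With 3 against 3 libraries the smallest p this test allows is 0.1.

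Iron import was represented by Tfrc and Slc11a2. Tfrc (ENSMUSG00000022797, chromosome 16, 32608920 to 32632794), the transferrin receptor, had 11.4, 10.7 and 12.3 CPM in the WT libraries and 14.3, 13.8 and 13.9 CPM in the KO libraries. All KO libraries were above all WT libraries. The KO mean was 1.22 times the WT mean (log2 fold change 0.29, edgeR adjusted p = 0.00199, SE 0.0713), and the rise was 0.49 (edgeR adjusted p = 1.03e-05) with the GC and length trend removed. Tfrc also marks red cell precursors, whose part in the rise was not tested. None of 12 erythroid markers in the table passed the filter, their summed level was 0.256 to 0.36 CPM in WT and 0.246 to 0.364 CPM in KO, and Epor, Slc4a1 and Rhag were among those with no counts.

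Slc11a2 (ENSMUSG00000023030, chromosome 15, 100387898 to 100425072) encodes DMT1, which carries ferrous iron out of endosomes after transferrin has released it. It had 159, 150 and 158 CPM in the WT libraries and 162, 166 and 160 CPM in the KO libraries. The groups did not overlap, but the gap was small and the test was not passed (log2 fold change 0.06, edgeR adjusted p = 0.146, SE 0.0357, 95% interval -0.01 to 0.13). Its direction depended on the processing, with a call of -0.17 (edgeR adjusted p = 4.37e-04) when the GC and length trend was removed. Scaled to library totals it was called at 0.18 (edgeR adjusted p = 3.98e-04), where the median of all genes was shifted by 0.11.

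Export was represented by the least abundant of the 9 genes. Slc40a1 (ENSMUSG00000025993, chromosome 1, 45908068 to 45926523), the ferroportin gene, had 67, 67 and 83 counts in the WT libraries and 52, 83 and 89 counts in the KO libraries. In CPM these were 1.85, 2.02 and 2.65 in WT and 1.56, 2.27 and 2.02 in KO. The groups overlapped, and no difference was detectable at this depth (log2 fold change -0.14, edgeR adjusted p = 0.546, SE 0.197, 95% interval -0.53 to 0.24). Without WT replicate 3 the value was 0.02. The ratio of Slc40a1 to Tfrc in FPKM was 0.112, 0.13 and 0.149 in the WT libraries and 0.0749, 0.113 and 0.1 in the KO libraries (log2 difference -0.45, two-sided exact permutation p = 0.2, adjusted over 4 ratios 0.2). These ratios overlapped at WT replicate 1 and KO replicate 2, and the difference was -0.28 without KO replicate 1. With the GC and length trend removed the difference was -0.58 (exact permutation p = 0.1, the smallest this design allows).

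Slc11a1 (ENSMUSG00000026177, chromosome 1, 74375195 to 74386062) showed the largest change among the 9 genes. It encodes NRAMP1, which pumps iron and manganese out of the lysosomes and phagosomes of macrophages and neutrophils, and variants of it alter resistance to intracellular bacteria in mice. Its level was 362, 360 and 334 CPM in the WT libraries and 594, 602 and 575 CPM in the KO libraries. The highest WT library was far below the lowest KO library. The rise was 1.68-fold (log2 fold change 0.75, edgeR adjusted p = 2.46e-11, SE 0.0347), and 0.54 (edgeR adjusted p = 9.03e-11) with the GC and length trend removed. Of 10 measured neutrophil markers, whose summed levels are given above, 8 were higher and 1 was lower in KO. Macrophage markers moved both ways, 5 of 10 higher and 3 lower, beside 31.5% and 29.8% of all genes tested. The part of either cell type in the rise was not tested.

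The ratio of Slc11a1 to its paralog Slc11a2 in FPKM was 3.90, 4.12 and 3.62 in the WT libraries and 6.30, 6.23 and 6.17 in the KO libraries, with no overlap. The log2 difference was 0.69 (two-sided exact permutation p = 0.1, the smallest this design allows, and 0.2 after adjustment over 4 ratios). The genes whose levels followed Slc11a1 most closely over the 6 libraries were Foxp4, Rubcn and Camta2. Their centred log2 CPM differed from that of Slc11a1 by a root mean square of 0.0149, 0.017 and 0.0201. Such likeness was common, since 626 tested genes lay within 0.1.

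Hmox1 (ENSMUSG00000005413, chromosome 8, 75093621 to 75100589) encodes heme oxygenase 1, which opens the heme ring and sets its iron free. It had 1038, 1082 and 1070 CPM in the WT libraries and 1105, 1114 and 1113 CPM in the KO libraries. The groups did not overlap, but the KO mean was only 1.04 times the WT mean (log2 fold change 0.06, edgeR adjusted p = 0.0461, SE 0.026). The call was lost with DESeq2 size factors (0.06, edgeR adjusted p = 0.0762) and with a filter at a mean of 1 CPM (0.04, edgeR adjusted p = 0.168). It was also lost without WT replicate 1 (0.05, edgeR adjusted p = 0.182), KO replicate 1 (0.07, edgeR adjusted p = 0.0825), KO replicate 2 (0.07, edgeR adjusted p = 0.0778) or KO replicate 3 (0.06, edgeR adjusted p = 0.0696). The call was kept with the GC and length trend removed (0.09, edgeR adjusted p = 0.0029) and under scaling to library totals (0.18, edgeR adjusted p = 1.44e-05). With the GC trend alone removed Hmox1 was called lower (-0.07, edgeR adjusted p = 0.0207). The authors' deposited table gives 0.07 with an adjusted p of 0.0383.

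The genes of the iron regulatory proteins were called in opposite directions. Aco1 (ENSMUSG00000028405, chromosome 4, 40143081 to 40198338) encodes IRP1, which is a cytosolic aconitase while it carries an iron-sulfur cluster and binds RNA once the cluster is lost. It had 13.7, 15 and 15.4 CPM in the WT libraries and 25.2, 22.7 and 22.3 CPM in the KO libraries. All KO libraries were above all WT libraries, by 1.59-fold on average (log2 fold change 0.67, edgeR adjusted p = 2.82e-07, SE 0.0687). With the GC and length trend removed the rise was 0.46 (edgeR adjusted p = 2.05e-05).

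Ireb2 (ENSMUSG00000032293, chromosome 9, 54863789 to 54912530) encodes IRP2, which has no such cluster and is degraded when iron is plentiful. It had 17.9, 17.2 and 18.9 CPM in the WT libraries and 14.7, 15.7 and 15.4 CPM in the KO libraries. The groups did not overlap, and KO was lower (log2 fold change -0.24, edgeR adjusted p = 0.00401, SE 0.0634). The call was lost with the GC and length trend removed (-0.08, edgeR adjusted p = 0.266) and under scaling to library totals (-0.12, edgeR adjusted p = 0.110). Its transcript has a GC content of 39%, and 3.66% of tested genes had as low a content.

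Aco1 was higher relative to Ireb2 in every KO library. The ratio of their FPKM was 1.61, 1.84 and 1.72 in the WT libraries and 3.61, 3.04 and 3.06 in the KO libraries. The log2 difference was 0.91 (two-sided exact permutation p = 0.1, the smallest this design allows, and 0.2 after adjustment over 4 ratios). With the GC and length trend removed the difference was 0.54, still without overlap (exact permutation p = 0.1).

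**Figure D3:**
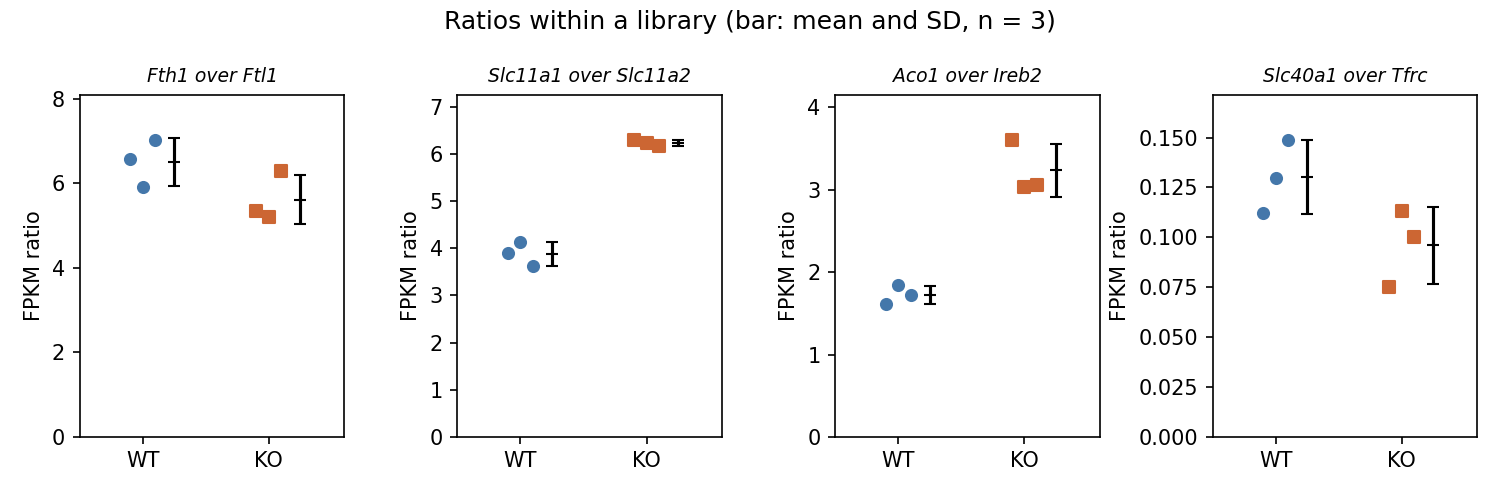
FPKM ratios of 4 gene pairs within each library, from 0, with the mean and SD of 3 libraries. The ratios of Slc11a1 to Slc11a2 (3.88 in WT, 6.23 in KO) and of Aco1 to Ireb2 (1.72 and 3.24) separate the genotypes, and the other 2 overlap.

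Slc11a1, Aco1 and Tfrc were called higher in KO under every alternative that was run, with log2 fold changes of 0.54 to 0.86, 0.46 to 0.78 and 0.18 to 0.57. Fth1 was called lower in 15 of 18 alternatives, Ireb2 in 12 of 17 and Hmox1 was called in 11 of 17, 1 of these as lower. With the GC and length trend removed 4 of the 9 genes were higher and 1 was lower, beside 55.9% of all genes called. Ftl1 was called in 3 of 18 and Slc11a2 in 4 of 17, both in either direction, and Slc40a1 in none of 17.

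**Figure D4:**
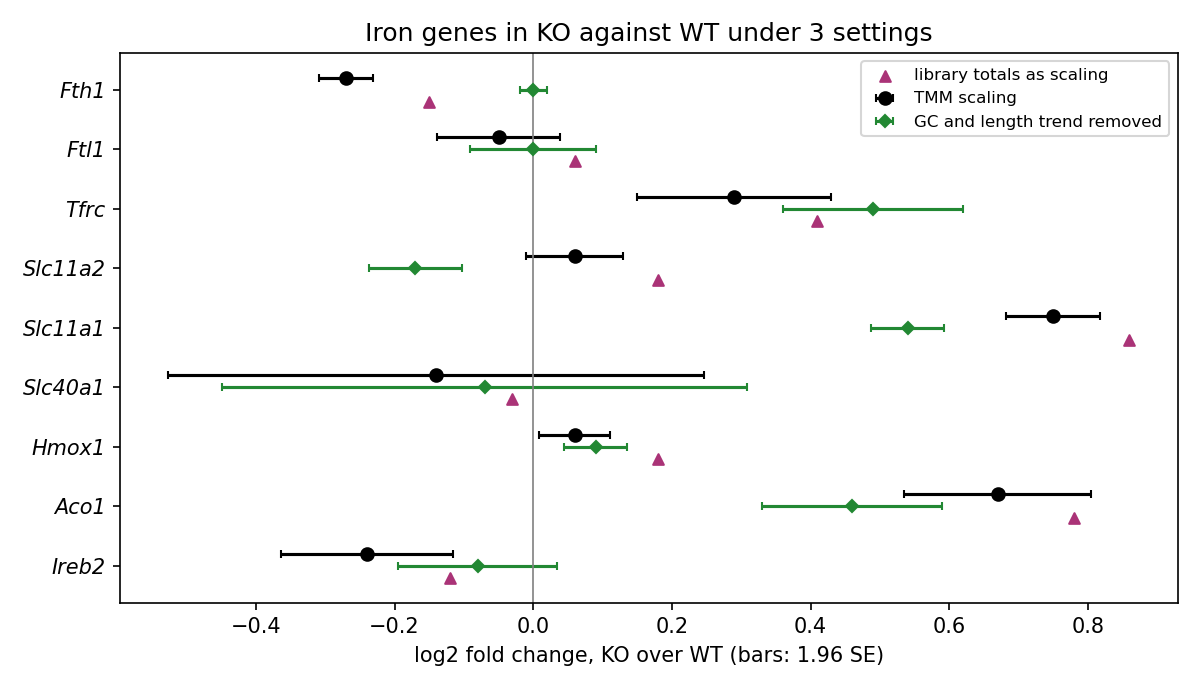
Log2 fold change of each gene, KO over WT, with TMM scaling (circles), with the GC and length trend removed (diamonds) and with library totals as the scaling (triangles). Bars span 95% intervals where drawn. Slc11a1, Aco1 and Tfrc lie above 0 in all 3 settings, whereas Fth1 moves from -0.27 to 0.00.

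The wider iron pathway was described from 8 lists of 93 genes, of which 76 passed the filter. Of these, 27 were higher and 23 lower in KO, or 65.8% called against 61.3% of all genes tested. Their median log2 fold change was 0.01. Under scaling to library totals 36 were higher and 18 lower, beside 5120 and 2956 of all genes. After removal of the GC and length trend 26 were higher and 28 lower, beside 3643 and 3604 of all genes. The counts of each list below stand beside the same figures for all genes, with 31.5% higher and 29.8% lower under TMM.

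Of 5 other measured genes of ferritin handling 4 rose and 1 fell, beside 31.5% and 29.8% of all genes tested. Their median log2 fold change was 0.32, and Ftmt had no counts. Ncoa4, the receptor that delivers ferritin to autophagy, rose from 12.3 ± 0.555 to 17.4 ± 0.246 CPM (log2 fold change 0.50, edgeR adjusted p = 3.84e-06, SE 0.0644). Herc2, a ubiquitin ligase gene linked to the turnover of NCOA4, rose from 8.15 ± 0.174 to 17.4 ± 0.443 CPM (log2 fold change 1.09). Pcbp1 and Pcbp2, iron chaperones of ferritin named after their values were seen, were at 0.27 and 0.32.

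Of 8 measured genes of iron uptake and reduction 3 were higher and 3 lower, with a median of 0.03. After removal of the GC and length trend 1 was higher and 4 were lower, with a median of -0.27. Genes of the STEAP family of metalloreductases went both ways. Steap1 fell from 2.53 ± 0.536 to 1.14 ± 0.366 CPM and Steap2 from 1.46 ± 0.300 to 0.626 ± 0.0698 CPM. Steap3, named after its values were seen, rose from 3.38 ± 0.16 to 4.45 ± 0.355 CPM (log2 fold change 0.40, edgeR adjusted p = 0.0114). That call was lost with the trend removed (0.12, edgeR adjusted p = 0.44). Steap4 did not pass the filter. Among genes of export and systemic control 1 was higher and 3 were lower of 6 measured, with a median of -0.30. Hfe, whose protein binds the transferrin receptor, fell by 0.37 and Furin, a protease that processes hepcidin, fell by 0.27 on the log2 scale, and the value of Furin was -0.66 with the trend removed. The hepcidin genes Hamp and Hamp2 did not pass the filter.

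Heme handling was mixed. Of 10 measured genes of heme transport and breakdown 4 rose and 4 fell, with a median of -0.06, and of 0.05 with the trend removed. Flvcr1, a transporter first described as a heme exporter, rose by 0.68 (edgeR adjusted p = 0.00106, SE 0.153). Abcg2, an efflux pump that also carries porphyrins, fell by 0.66 (log2 fold change -0.66, edgeR adjusted p = 0.00917), a call lost with the GC trend alone removed (-0.37, edgeR adjusted p = 0.123). In heme synthesis and mitochondrial iron import 6 rose and 2 fell of 14 measured, with a median of 0.10. With the trend removed 4 were higher and 4 lower, with a median of -0.04. Cpox and Ppox, enzymes late in heme synthesis, had log2 fold changes of 0.63 and 0.6, and of 0.5 and 0.37 with the trend removed.

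Iron-sulfur cluster assembly had 6 genes that rose and 6 that fell of 22 measured, with a median of 0.04. With the trend removed 9 were higher and 10 lower (median -0.07). Under scaling to library totals 10 were higher and 4 lower, with a median of 0.15 beside 0.11 for all genes tested. Fdxr, the ferredoxin reductase, rose from 1.95 ± 0.273 to 3.71 ± 0.276 CPM and Mms19, of the cytosolic assembly machinery, from 11.9 ± 0.488 to 19.4 ± 1.32 CPM. Their log2 fold changes were 0.93 and 0.71, and 0.77 and 0.45 with the trend removed. In the list of ubiquitin ligase parts and iron-linked factors 1 gene rose and 4 fell of 8 measured, with a median of -0.21. Under scaling to library totals 3 were higher and 3 lower, with a median of -0.09 beside 0.11 for all genes tested. Fbxl5, the iron sensor that targets IRP2 for degradation and was named after its values were seen, had a log2 fold change of -0.17 (edgeR adjusted p = 0.0107). Skp1a and Rbx1, parts of its ligase complex, fell by 0.42 and 0.44, with values of -0.14 and -0.26 once the trend was removed. The call of Fbxl5 was lost there (-0.1, edgeR adjusted p = 0.108).

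In the list of iron sequestration and siderophore binding 2 of 3 genes rose, or 66.7% called against 61.3% of all genes tested. The third, Slc22a17, which encodes a cell-surface receptor for lipocalin 2, was at 0.00 (edgeR adjusted p = 0.994). Lcn2, which encodes the siderophore-binding lipocalin 2, rose from 229 ± 4.08 to 360 ± 8.86 CPM (log2 fold change 0.65, edgeR adjusted p = 4.79e-11, SE 0.0323). Ltf, the lactoferrin gene, rose from 4.14 ± 0.0386 to 11.1 ± 0.337 CPM (log2 fold change 1.42, edgeR adjusted p = 6.74e-10, SE 0.0879). Both are also products of neutrophil granules. Of 10 measured neutrophil markers 8 were higher in KO and 1 was lower, beside 31.5% and 29.8% of all genes tested. The lower one, Mmp8, went from 16.4 to 8.12 CPM (log2 fold change -1.01). The part of neutrophils was not tested.

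**Figure D5:**
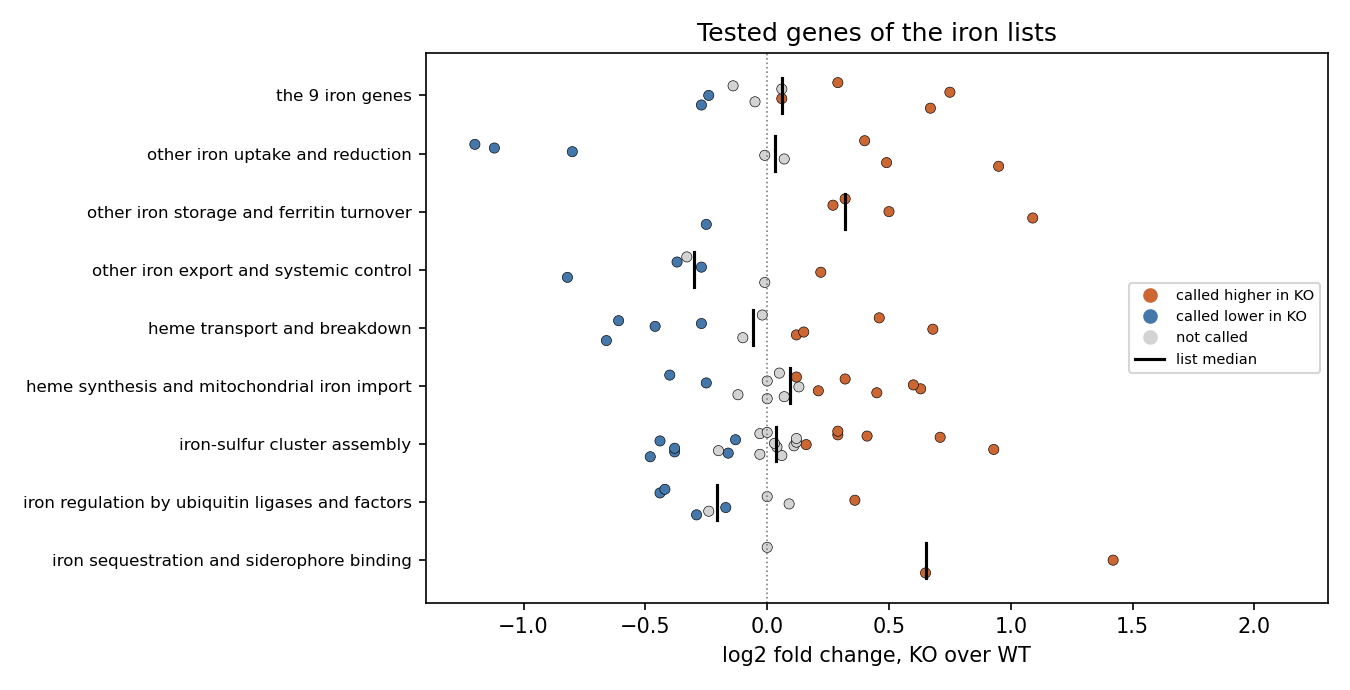
Log2 fold change, KO over WT, of each tested gene in the iron lists, coloured by call, with a line at the list median. Genes lie on both sides of 0 in every list but the sequestration list, whose 2 called genes are at 0.65 and 1.42.

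Hairpin matches elsewhere in the transcriptome were read in the same way. Besides the 3 genes with a 5′ match described above, 18 genes had one, Ftl1-ps1 among them. Of these 11 were tested, 5 higher and 4 lower, so that 81.8% were called against 61.3% of all genes tested, with a median of -0.11. After removal of the trend 4 were higher and 2 lower, with a median of -0.01. Besides Tfrc, 83 tested genes had a match in the 3′ UTR, 38 higher and 15 lower, with a median of 0.15. That was 63.9% called against the same 61.3%, with 31.5% of all genes higher and 29.8% lower. With the trend removed 27 were higher and 20 lower, with a median of 0.05. Under scaling to library totals 46 were higher and 10 lower, with a median of 0.27. Of all genes tested 5120 were then higher and 2956 lower, with a median of 0.11.

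Promoter sequences of 6 of the 9 genes, from 250 bases before to 50 bases after the start, were available from RefSeq on GRCm38.p6. They were searched on both strands for the unfolded protein response element TGACGTGG, the ER stress response element (CCAAT and CCACG with 9 bases between them) and the antioxidant response element core (TGAC and GC with 3 bases between them). None of the 8 promoters of these 6 genes held a match, against 0.676%, 0.119% and 12.4% of all 32851 promoters. At these shares few or no matches would be met among 8 promoters, so their absence says little. Slc40a1, Slc11a2 and Hmox1 had no promoter sequence available and were not searched.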

How the data were processed

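Libraries were made with the NEBNext Ultra RNA kit, per the labels' protocols. The submitters' processing notes list Bowtie 0.12.2 and 2 builds, mm8 and mm10, without their roles. No source used here gives the counter or its strand setting. Raw counts per gene were deposited, with FPKM that the values show to rest on 1 scaled total per library. The deposited signal columns (mean normalized counts per genotype) were not used. The deposited log2 fold changes and p-values come from a tool that the file headers do not name. Of 54409 Ensembl identifiers found in GENCODE vM21, 98.3% had identical mm10 coordinates, including 8 of the 9 genes described. Fth1 starts earlier in that release.

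Counts of all 6 libraries were tested with edgeR 4.0.16 in R 4.3.3 (TMM, default expression filter, quasi-likelihood test, genotype as the only term), with adjustment over 13080 genes. The SE was derived from the fold change and its F statistic, and intervals assume normal errors. The GC and length trend was fitted per library with natural splines (5 degrees of freedom each) and entered as offsets. GC was that of the longest GENCODE vM21 transcript of a gene, and length was the deposited gene length. In simulated counts with 200 changed genes among 13080, 69% of 1.5-fold changes and 85% of 2-fold changes were found, beside 13 false calls. Far more genes, 8019, were called in the real data, and the simulation held no GC or length trend. These rates thus may not hold for the real comparison. Copies had at least 90% identity over at least 200 bases and 50% of the shorter sequence. Genes overlapping Ftl1 and Slc11a2 on the other strand held 22 and 51 counts. Within-genotype chi-square per degree of freedom was 2.66 to 5.91, so no library was a duplicate. DESeq2 1.42.0, other scalings and filters, a replicate block and leaving out each library were alternatives.

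The 9 genes, lists and tests were chosen with earlier results of these data known. Other genes are named if they are Xbp1, closest to Slc11a1, copies, markers, or the 2 called genes of a list with the largest change, non-overlapping libraries and a mean CPM of 1 or more, unless stated otherwise.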

Additional observations from a re-analysis of the deposited data

How the results depend on the processing

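The count of called genes was 8019 and ranged from 7088 with the DESeq2 Wald test to 8140 with no expression filter. Calls among the 9 iron genes ranged from 5 to 7 and among the other iron genes from 45 to 54. Of the called genes 51.3% were higher in KO with TMM and 63.4% with library totals as the scaling. Same-numbered libraries did not deviate together (correlations of -0.04, 0.04 and 0.04 across genes). Whether they share anything beyond a number, such as a preparation, is not in the labels. With a replicate block 8013 genes and 7 of the 9 iron genes were called, Ftl1 being added at -0.05 (edgeR adjusted p = 0.0358). The 4 ratio differences of -0.21, 0.69, 0.91 and -0.45 are by arithmetic the same as means over same-numbered pairs, so that is no check of them.

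Signs turned as follows. With library totals Ftl1 was at 0.06. With the GC and length trend removed Slc11a2 was at -0.17, also with the block or with GC from the transcript nearest the deposited length, and the Fth1 to Ftl1 ratio difference was 0.0005. The GC trend alone, the length trend alone and the nearest transcript were alternatives added after the data were seen. With the GC trend alone removed Slc40a1 was at 0.07, Slc11a2 at -0.01, Hmox1 at -0.07 and Ireb2 at 0.07. With the length trend alone removed Fth1 was at 0.01, Ftl1 at 0.14 and Slc11a2 at -0.05. Leaving out a library gave -0.09 to 0.01 for Ftl1 and -0.26 to 0.02 for Slc40a1. The cause was not tested. Of 534 recomputed values 15 changed sign, and with the same sign 14 lost their call and 3 gained one. The 534 include the ratio differences over pairs and from counts in place of FPKM, which were all but bound to stay the same. Depth limits Slc40a1 most, at 52 to 89 counts per library.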

Other observations

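Some genes of heme and hemoglobin handling, named after their values were seen, changed more than Hmox1. Hp, which encodes the hemoglobin-binding protein haptoglobin, rose from 29.4 ± 0.531 to 56.8 ± 1.13 CPM (SD, n = 3 each), a log2 fold change of 0.95 (edgeR adjusted p = 1.46e-11, SE 0.0424), and by 0.97 with the GC and length trend removed. Slc48a1, which moves heme out of lysosomes, rose from 230 ± 3.49 to 316 ± 3.47 CPM (log2 fold change 0.46), and by 0.33 with the trend removed. Hmox2, the constitutive heme oxygenase gene, was lower, at 269 ± 1.45 CPM in WT against 196 ± 5.67 in KO (log2 fold change -0.46, edgeR adjusted p = 4.11e-09), and its value was -0.40 with the trend removed. Lrp1, a receptor for the heme carrier hemopexin among many other ligands, was at 0.49 (edgeR adjusted p = 1.70e-08), but at 0.03 (edgeR adjusted p = 0.461) with the trend removed.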
